A study of Homo sapiens with 6 samples.

Results

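Epithelial to mesenchymal transition (EMT) genes were examined in SCC-9 cells, an established line of human tongue squamous cell carcinoma, after knockdown of the proliferation marker gene MKI67. The 10 genes were taken by symbol: the transcription factors SNAI1, SNAI2, TWIST1, TWIST2, ZEB1, ZEB2 and PRRX1, the intermediate filament gene VIM, and the epithelial splicing regulators ESRP1 and ESRP2. Of these, 9 were among the 25349 genes with counts, and 6 passed the filter on low counts. PRRX1, a homeodomain factor of mesenchyme, had no counts listed, and each listed gene had at least 1 read in total over the 6 libraries. The siE7 group (titles siKi) received an siRNA against exon 7 of MKI67 and the siNC group (titles NS) a nonspecific siRNA, with 3 libraries each. Both groups were grown in medium with serum and hydrocortisone and transfected with 10 nM siRNA on day 0 and again on day 2. Several siRNAs against exon 7 were described, and which of them was used for these libraries is not given in the sources used here. The model is limited to 1 cell line.

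In EMT, epithelial cells lose their junctions and polarity and become motile, as in embryonic tissue movements and in invading carcinoma. The Snail, ZEB and Twist families are transcription factors that recognise E-box sequences, and E-cadherin (CDH1) is their best known repressed target. Vimentin, N-cadherin and fibronectin are the usual mesenchymal markers, while ESRP1 and ESRP2 keep epithelial splice forms of genes such as CD44 and FGFR2.

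The libraries held 25608192 to 29550264 counts on genes. MKI67 itself, counted over the whole gene, was at 1072, 1029 and 1077 CPM (reads of a gene per 1e6 library reads, scaled by TMM factors) with siNC and at 112, 124 and 108 CPM with siE7, a log2 fold change of -3.21 (SE 0.114). Replicate 1 of siE7 stood apart from the other siE7 libraries. The second principal component, with 17.84% of the variance, put it at -46.38 and the others at 20.6 and 21. Chi-square values per degree of freedom were 61.27 and 72.83 between it and the others, against 5.586 to 6.225 between all other pairs of replicates. Values without this library are given beside the results for the EMT genes, the cell-state markers and the gene lists, and for other genes where the call or sign changed. Without it more genes passed the test in general, 58.4% of 15011 tested genes being called, 28.9% higher and 29.5% lower, so counts without it are to be read against these shares. The sources do not say whether the libraries came from separate cultures, so the p-values measure the spread between these libraries, which may be technical. In cultures sequenced in bulk, fewer cells of a state and less RNA per cell cannot be told apart. All 15 keratinocyte markers passed the filter, and their summed level was 28013 to 29279 CPM with siNC and 24079 to 31442 CPM with siE7. The 12 fibroblast markers summed to 86.7 to 89.6 CPM with siNC and 61.0 to 83.4 CPM with siE7, with LUM and THY1 at 1 count each over all libraries. DCN had 0, 1 and 2 counts with siNC and 8, 11 and 19 with siE7, without overlap. COL3A1 had 0, 0 and 0 counts with siNC and 3, 0 and 6 with siE7. DCN and COL3A1 failed the filter on low counts. The leukocyte and endothelial markers summed to at most 4.003 CPM in any library, and PTPRC, CD3E and LYZ had no counts listed. Keratinocyte markers were thus abundant in both groups, with 2 called higher (PERP 1.17 and KRT17 0.70) and 6 lower (LAMB3 -0.94 foremost). This was 53.3% of them, where 34% of all tested genes were called, 18% higher and 16% lower. Without siE7 replicate 1, 3 keratinocyte markers were called higher and 9 lower. Of 5 tested fibroblast markers FBLN1 was called (-0.60), which is 20% of them. MFAP5 (0.85) and FAP (-0.57) were not called, nor was CD14 (-0.52), the 1 tested leukocyte marker. Without siE7 replicate 1, MFAP5 was called higher (1.02) and CD14 lower (-0.996), and FBLN1, called in 9 of 14 alternative settings, was at -0.90. In that fit 2 of 6 tested fibroblast markers were called higher and 1 lower. The part of these shifts in the results was not tested.

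The EMT genes moved in both directions. SNAI2, TWIST1 and ZEB2 rose after MKI67 knockdown, by 2.52-, 2.29- and 1.78-fold in mean CPM. ESRP2 fell to 0.700 and VIM to 0.797 of their siNC means, while ESRP1 was not called. A gene was called at an adjusted p under 0.05, from the quasi-likelihood test of edgeR over 14661 genes with Benjamini-Hochberg adjustment. Of the 6 tested genes 5 were called, 3 higher and 2 lower, where 34% of all tested genes were called, 18% higher and 16% lower. A differentially expressed gene (DEG) was a called gene with an absolute log2 fold change over 1. SNAI2 and TWIST1 were DEGs, both higher, as were 12.2% of all tested genes, 7.38% higher and 4.84% lower. SNAI1, TWIST2 and ZEB1 failed the filter on low counts, so these counts do not describe all 10 genes. Groups that do not overlap are common here: 47.6% of all tested genes had every siE7 library on one side of every siNC library.

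**Figure D1:**
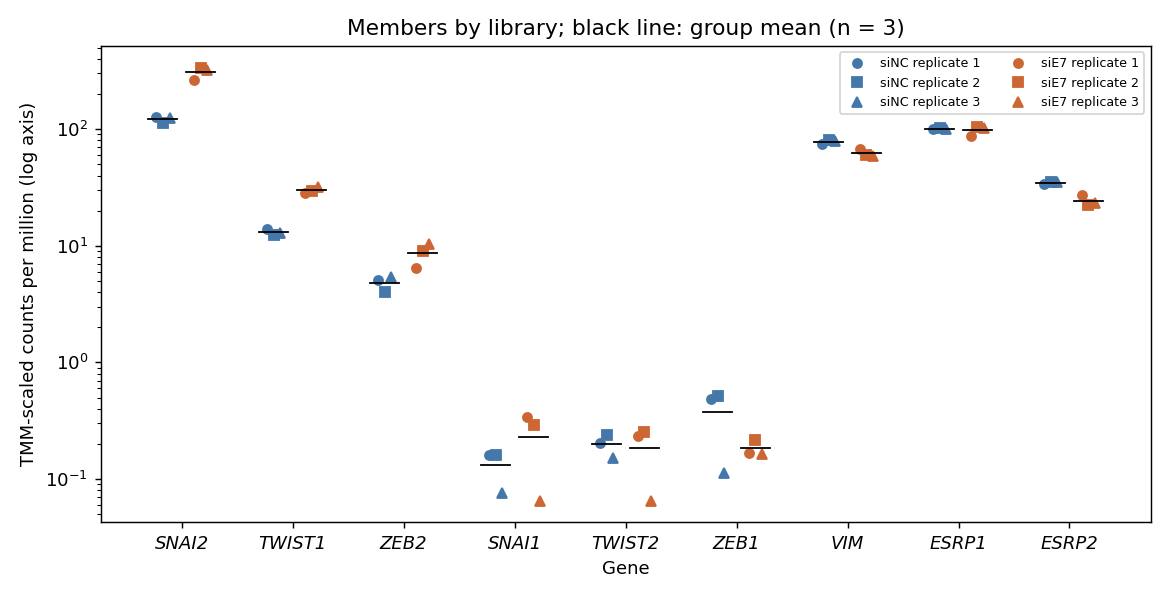
TMM-scaled CPM (log axis) of the 9 genes with counts, each point a library and each black line a group mean (n = 3). The siE7 points (orange) lie above all siNC points (blue) for SNAI2, TWIST1 and ZEB2 and below them for VIM and ESRP2, and SNAI1, TWIST2 and ZEB1 lie under 1 CPM.

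Among the Snail factors, SNAI2 (Slug; GRCh38 chromosome 8, 48917598 to 48921740, minus strand) was the abundant one. Its level was 127, 114 and 125 CPM in siNC replicates 1 to 3 and 265, 337 and 318 CPM in siE7 replicates 1 to 3. Every siE7 library lay above every siNC library, with replicate 1 the lowest of siE7. The log2 fold change was 1.33 (SE 0.122, 95% confidence interval 1.07 to 1.60) with an adjusted p of 1.9e-05 in edgeR's quasi-likelihood test. SNAI2 was called under all 14 alternative settings, with log2 fold changes of 1.26 to 1.50 and a value of 1.37 without siE7 replicate 1.

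SNAI1 (Snail; chromosome 20, 49982980 to 49988886, plus strand), the founding member of the family in vertebrates, had raw counts of 4, 4 and 2 with siNC and 10, 8 and 2 with siE7. Its groups overlapped, and a change was not detectable at this depth. DESeq2, which tested it, gave a log2 fold change of 0.75 with an adjusted p of 0.67. SNAI2 made up 99.86% to 99.94% of the reads on both Snail genes with siNC and 99.87% to 99.98% with siE7, so nearly all Snail family RNA measured was SNAI2 in both groups.

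Of the Twist factors, basic helix-loop-helix proteins of mesoderm and neural crest, TWIST1 (chromosome 7, 19020991 to 19117636, minus strand) was the one measured well. It was at 13.85, 12.45 and 12.95 CPM with siNC and at 28.1, 29.7 and 32.2 CPM with siE7. The groups did not overlap, and siE7 replicate 1 was close to the other siE7 libraries. The log2 fold change was 1.20 (SE 0.134, 95% confidence interval 0.905 to 1.49) with an adjusted p of 7.2e-05 in edgeR's quasi-likelihood test. TWIST1 was called under all 14 alternatives at 1.14 to 1.37, with a value of 1.18 without siE7 replicate 1. The log2 ratio of TWIST1 to SNAI2 counts within a library was -3.22 ± 0.0433 (SD, n = 3) with siNC and -3.35 ± 0.139 with siE7. The groups overlapped in this ratio (difference -0.13, exact two-sided permutation p = 0.2).

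TWIST2 (chromosome 2, 238848032 to 238910534, plus strand) had raw counts of 5, 6 and 4 with siNC and 7, 7 and 2 with siE7, and its groups overlapped. DESeq2 gave it a log2 fold change of -0.15 with an adjusted p of 0.94, so no change was detectable at this depth. TWIST1 held 98.11% to 98.84% of the reads on both Twist genes with siNC and 99.15% to 99.8% with siE7.

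The ZEB factors are zinc finger and homeodomain repressors that bind E-boxes and recruit CtBP corepressors. ZEB2 (chromosome 2, 144364364 to 144521057, minus strand) was the called transcription factor for which the RefSeq promoter table held an entry. Its window of 300 bases around a RefSeq start on GRCh38.p14 (chr2:144520070-144520369, minus strand) is shown for its E-box, in capitals. This window lies inside the gene span given above and does not reach the outermost annotated start. An E-box was searched as CANNTG, which reads the same on both strands, and 68.7% of the 35116 RefSeq promoter windows held one.
ZEB2: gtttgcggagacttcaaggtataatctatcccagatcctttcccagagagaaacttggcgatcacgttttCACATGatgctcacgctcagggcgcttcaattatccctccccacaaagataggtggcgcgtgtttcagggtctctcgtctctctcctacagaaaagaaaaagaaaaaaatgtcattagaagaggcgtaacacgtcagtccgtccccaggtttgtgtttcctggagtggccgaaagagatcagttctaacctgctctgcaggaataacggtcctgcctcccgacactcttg

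The ZEB2 window held no CACCTG or CAGGTG, the 2 strands of the form of E-box best known for Snail and ZEB proteins. ZEB2 was at 5.06, 4.04 and 5.42 CPM with siNC and at 6.48, 8.99 and 10.4 CPM with siE7. The groups did not overlap, but siE7 replicate 1 lay nearer to siNC than the other siE7 libraries did. The log2 fold change was 0.83 (SE 0.216, 95% confidence interval 0.359 to 1.30) with an adjusted p of 0.012 in edgeR's quasi-likelihood test, and 0.94 without siE7 replicate 1. Its call was lost without siNC replicate 2 (0.71, adjusted p 0.071) and without siE7 replicate 3 (0.675, adjusted p 0.051).

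ZEB1 (chromosome 10, 31318495 to 31529814, plus strand) had raw counts of 12, 13 and 3 with siNC and 5, 6 and 5 with siE7. The groups overlapped through siNC replicate 3, and DESeq2 gave a log2 fold change of -1.08 with an adjusted p of 0.40. Without siE7 replicate 1, ZEB1 passed the filter, at -1.01 with an adjusted p of 0.24 in edgeR's quasi-likelihood test. ZEB2 held 88.6% to 97.95% of the reads on both ZEB genes with siNC and 97.46% to 98.45% with siE7, so ZEB1 was the minor ZEB gene in every library. ZEB2 shares 1299 exonic bases with the antisense RNA ZEB2-AS1, which had no counts listed, and ZEB1 shares 396 with ZEB1-AS1, which had counts of 5, 7 and 7 with siNC and 15, 6 and 3 with siE7.

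VIM (chromosome 10, 17228241 to 17237593, plus strand) encodes vimentin, the intermediate filament of mesenchymal cells. It was at 75.1, 80.1 and 78.8 CPM with siNC and at 67.7, 60.0 and 58.9 CPM with siE7. All siE7 libraries lay below all siNC libraries, and replicate 1 was the highest of siE7. The log2 fold change was -0.33 (SE 0.111, 95% confidence interval -0.569 to -0.084) with an adjusted p of 0.040 in edgeR's quasi-likelihood test. VIM was called in 5 of 14 alternatives, at adjusted p-values from 1.5e-07 without siE7 replicate 1 (log2 fold change -0.45) to 0.16 with libraries scaled by their totals alone (-0.16). Its log2 fold change was below 0 in all 14.

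The epithelial splicing regulators ESRP1 and ESRP2 are RNA-binding paralogs. ESRP1 (chromosome 8, 94641074 to 94707466, plus strand) was at 99.7, 103 and 101 CPM with siNC and at 87.7, 105 and 103 CPM with siE7. Of the siE7 libraries replicate 1 lay below all siNC libraries, and replicates 2 and 3 lay above them, replicate 3 by a margin under the rounding used here. The log2 fold change was -0.035 (SE 0.112, 95% confidence interval -0.28 to 0.21, adjusted p 0.83 in edgeR's quasi-likelihood test), and ESRP1 was called under none of the 14 alternatives, at -0.019 without siE7 replicate 1. Its sign turned to 0.137 (adjusted p 0.35) when libraries were scaled by their totals alone, a setting that moved the median log2 fold change of all genes by 0.168.

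ESRP2 (chromosome 16, 68229033 to 68238102, minus strand) was at 33.98, 34.99 and 35.37 CPM with siNC and at 27.1, 22.5 and 23.4 CPM with siE7. The groups did not overlap, and siE7 replicate 1 was again the nearest to siNC. The log2 fold change was -0.515 (SE 0.127, 95% confidence interval -0.792 to -0.238) with an adjusted p of 0.0089 in edgeR's quasi-likelihood test, and -0.66 without siE7 replicate 1. The call was lost in 1 of 14 alternatives, without siNC replicate 3, at an adjusted p of 0.050. The share of ESRP1 in the reads on both paralogs was 73.98% to 74.58% with siNC, 76.39% in siE7 replicate 1 (95% Wilson interval 74.93% to 77.78%), and 82.36% and 81.45% in siE7 replicates 2 and 3. The interval of siE7 replicate 1 overlaps those of the siNC libraries, which reach up to 76.04% in siNC replicate 1. The log2 ratio of ESRP2 to ESRP1 was -1.54 ± 0.0257 (SD, n = 3) with siNC and -2.02 ± 0.284 with siE7, without overlap. The exact two-sided permutation p of this difference was 0.1, the smallest that 3 against 3 libraries can give. ESRP2 shares 227 exonic bases with NFATC3 on the other strand, and whether strand was used in counting is not given in the sources used here. It also shares 113 exonic bases with a long noncoding RNA on the same strand, an overlap that strand cannot separate. This RNA had 44, 50 and 49 counts with siNC and 65, 46 and 55 with siE7.

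**Figure D2:**
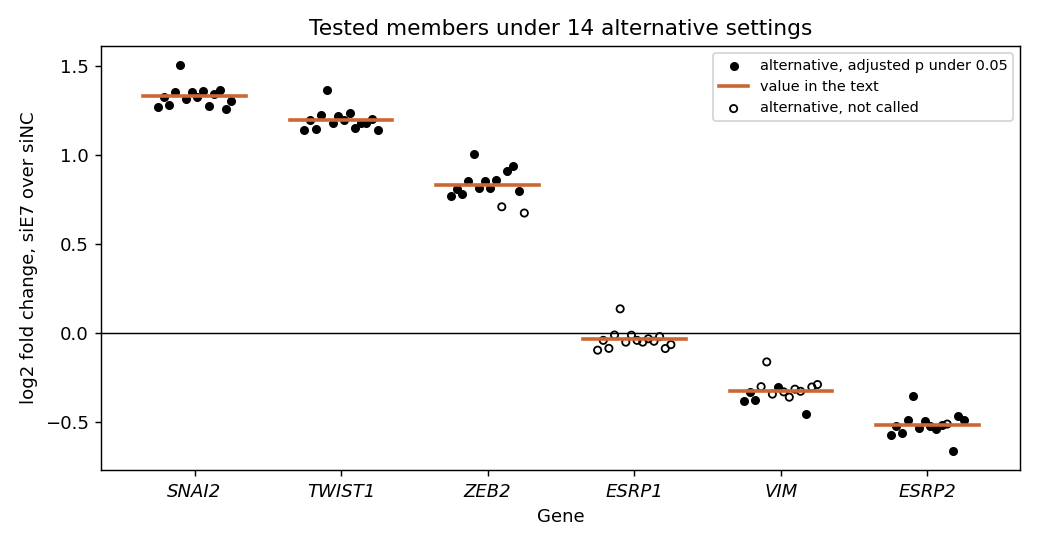
Log2 fold changes (siE7 over siNC) of the 6 tested genes under 14 alternative settings, filled where the adjusted p was under 0.05 and open where it was not, with an orange line at the value in the text. SNAI2 and TWIST1 are filled throughout, ESRP1 is open throughout and lies around 0, and VIM is filled in 5 of 14.

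The cell-state markers known for these factors were set beside them, and both the epithelial and the mesenchymal ones fell. E-cadherin (CDH1), the adherens junction cadherin of epithelia, was at 170.1, 167 and 176 CPM with siNC and at 98.0, 79.3 and 73.4 CPM with siE7, a log2 fold change of -1.03 (SE 0.126). EPCAM, an epithelial adhesion molecule, was at 63.5, 62.7 and 61.2 CPM with siNC and at 28.0, 38.7 and 43.3 CPM with siE7 (-0.77, SE 0.153). Both fell without overlap between the groups. N-cadherin (CDH2), a cadherin of neural and mesenchymal cells, was at 11.5, 12.5 and 10.5 CPM with siNC and at 5.40, 6.12 and 4.55 CPM with siE7 (-1.10, SE 0.178). Fibronectin (FN1), an extracellular matrix protein, was at 18224, 18112 and 19221 CPM with siNC and at 9314, 7345 and 6675 CPM with siE7 (-1.25, SE 0.131). These 4 genes were called under all 14 alternatives, and edgeR's quasi-likelihood test gave adjusted p-values of 0.00014 for CDH1, 0.0029 for EPCAM, 0.0008 for CDH2 and 4.9e-05 for FN1. Without siE7 replicate 1 their log2 fold changes were -1.23, -0.67, -1.17 and -1.46 in the same order.

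Within libraries, the log2 ratio of CDH2 to CDH1 was -3.90 ± 0.17 (SD, n = 3) with siNC and -3.96 ± 0.248 with siE7. The groups overlapped in this ratio (difference -0.064, exact two-sided permutation p = 0.8). The log2 ratio of VIM to CDH1 was -1.13 ± 0.0669 with siNC and -0.42 ± 0.109 with siE7, a difference of 0.72 without overlap (exact two-sided permutation p = 0.1). CDH1 fell further than VIM, so the ratio was higher although VIM itself was not. The 4 ratios given were chosen after values had been seen.

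**Figure D3:**
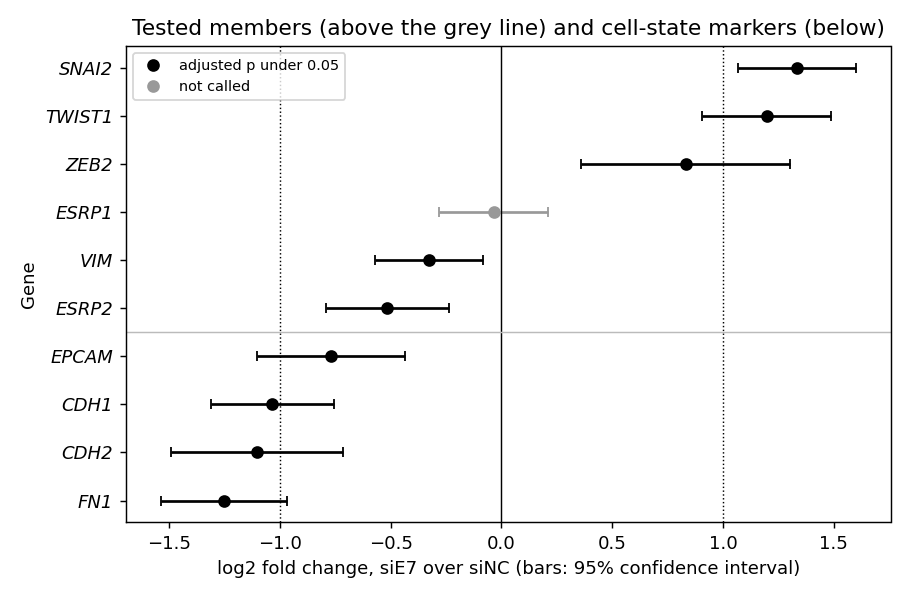
Log2 fold changes (siE7 over siNC) with 95% confidence intervals of the 6 tested genes, above the grey line, and of EPCAM, CDH1, CDH2 and FN1, below it, with dotted lines at log2 fold changes of 1 and -1. SNAI2, TWIST1 and ZEB2 lie above 0 and all 4 cell-state markers lie below 0.

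To compare levels between the genes, CPM was divided by the length of the annotated exons of each gene in kb. SNAI2 had the highest level of the 9 genes in both groups, at 37.1 ± 2.22 (SD, n = 3) CPM per kb with siNC and 93.5 ± 11.3 with siE7, above 91.9% and 96.7% of all tested genes. ESRP1 came next, at 20.7 ± 0.299 CPM per kb with siNC and 20.2 ± 1.93 with siE7. With siNC, the level of VIM (15.1 ± 0.508 CPM per kb) was followed by those of ESRP2 (6.70 ± 0.138) and TWIST1 (6.55 ± 0.356), which did not differ beyond their spread. With siE7, TWIST1 came next after ESRP1 at 15.02 ± 1.02 CPM per kb, above VIM (12.0 ± 0.923) and ESRP2 (4.69 ± 0.472) in every library. TWIST1 thus passed from a level above 69.5% of tested genes to one above 82.5%.

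The remaining factors were far lower per kb. ZEB2 was at 0.185 ± 0.0272 CPM per kb (SD, n = 3) with siNC and 0.330 ± 0.076 with siE7, above 10.1% and 14.1% of tested genes. Its annotated exons cover 26.2 kb and its longest transcript 9.58 kb. With the latter as the length ZEB2 was at 0.505 CPM per kb with siNC and 0.900 with siE7, so its level depends on the length used. TWIST2, SNAI1 and ZEB1 were at 0.0929, 0.0778 and 0.0432 CPM per kb with siNC and at 0.0868, 0.135 and 0.0212 with siE7. Neighbours among them overlapped with siNC, and SNAI1 and TWIST2 overlapped with siE7. With the longest transcript as the length, VIM and ESRP1 changed places with siNC, as did VIM with TWIST1 and SNAI1 with TWIST2 with siE7, so the order of these neighbours depends on the length used.

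**Figure D4:**
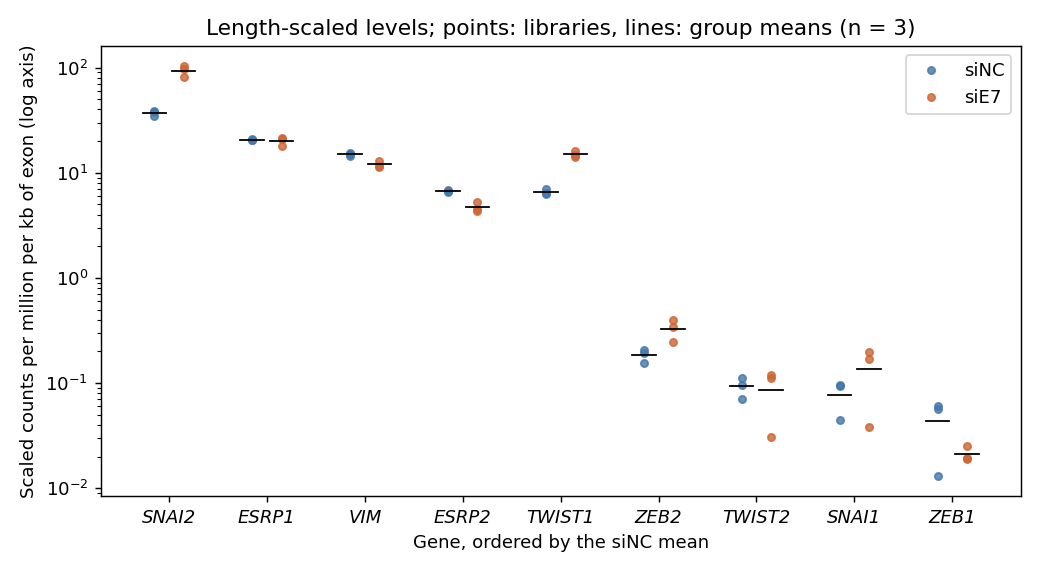
CPM per kb of exon (log axis) of the 9 genes with counts, ordered by the siNC mean, with points for libraries and lines for group means (n = 3). TWIST1 passes ESRP2 and VIM with siE7, and ZEB2, TWIST2, SNAI1 and ZEB1 lie below 1 in both groups.

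For the 3 tested genes with the smallest p, the nearest genes by profile over the 6 libraries were found by the root mean square difference of centred log2 CPM. ZSCAN29, a zinc finger gene, LINC01004, a long noncoding RNA, and ERRFI1, a feedback inhibitor of the EGF receptor, lay nearest to SNAI2, at differences of 0.0557, 0.0588 and 0.0626. PTPRM, a receptor phosphatase, TM4SF1, a membrane protein of the tetraspanin-like L6 family, and ZNRD1ASP lay nearest to TWIST1, at 0.0516, 0.0571 and 0.0572. FANCA, a Fanconi anaemia repair gene, CISD3, of mitochondrial iron-sulfur proteins, and GOT2, the mitochondrial aspartate aminotransferase, lay nearest to ESRP2, at 0.0236, 0.024 and 0.025. The log2 fold changes of these genes were 1.32 to 1.76, 1.16 to 1.30 and -0.551 to -0.503 for the neighbours of SNAI2, TWIST1 and ESRP2, so the likeness includes the difference between the groups.

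Of 17 other EMT transcription factors and partners tested, 3 were called higher and 4 lower. This was 41.2% of them, beside 34% of all tested genes, and their median log2 fold change was 0.089, where the median of all tested genes was 0.077. The 3 that rose were the inhibitors of DNA binding, which hold basic helix-loop-helix factors such as the Twist partners off DNA: ID2 at 2.65 (SE 0.261), ID3 at 1.19 (SE 0.153) and ID1 at 1.01 (SE 0.113). SOX9, a factor of cartilage and progenitor cells, fell by 1.42 on the log2 scale and FOXQ1, a forkhead factor, fell by 1.86. CTBP1 and CTBP2, the corepressors that ZEB proteins recruit, fell by 0.50 and 0.37, the latter called in 9 of 14 alternatives. The Twist partners TCF3, TCF4 and TCF12 were not called, at 0.09, 0.31 and 0.002, and the signs of TCF3 and TCF12 changed between alternatives. ID2 was at 0.608, 0.881 and 0.833 CPM with siNC and at 4.69, 5.76 and 4.22 CPM with siE7, so its rise began from a low level. With siE7 replicate 1 left out, 4 were called higher and 5 lower, where 58.4% of all genes were called.

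Of 13 epithelial transcription factors that oppose EMT, 1 was called higher and 4 lower (38.5%, beside 34% of all tested genes, median -0.141). KLF4, a factor of epithelial differentiation, rose (1.12, SE 0.158), and FOXA1, a pioneer factor of endoderm and gland epithelia, fell (-1.95, SE 0.419) from 2.18 to 0.564 CPM on average. The squamous lineage factor TP63 fell by 0.335 and GRHL3 by 0.56 on the log2 scale. GRHL2 and OVOL1, which repress ZEB genes in epithelia, were not called, at -0.11 and -0.25, but OVOL1 was called lower without siE7 replicate 1 (-0.43, adjusted p 0.00068 in edgeR's quasi-likelihood test) and GRHL2 changed sign with libraries scaled by their totals alone (0.057). TP63 was called in 8 and GRHL3 in 4 of 14 alternatives. Without siE7 replicate 1, 2 of 14 tested genes of the list were called higher and 7 lower, where 28.9% and 29.5% of all genes were.

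Epithelial markers that EMT factors are known to repress were mostly lower. Of 31 tested, 19 were called lower and 1 higher (64.5%, median -0.562), against 16% of all tested genes called lower. CDH1 and EPCAM, given above as cell-state markers, are among the 19. ST14, the membrane protease matriptase, fell by 1.51 (SE 0.129) and the simple epithelial keratins KRT18 and KRT8 fell by 1.27 and 1.00 on the log2 scale. Junction genes among them were the claudin CLDN4 (-1.18), occludin (OCLN, -1.26), plakoglobin (JUP, -0.88) and the tight junction scaffold TJP1 (-0.34, called in 8 of 14 alternatives). MUC1, a membrane mucin, rose from 30.8, 29.4 and 32.6 CPM to 116, 78.8 and 74.0 CPM (1.54, SE 0.167). In the fit without siE7 replicate 1, 23 were called lower and 1 higher, where 29.5% of all genes were called lower. With libraries scaled by their totals alone, 13 were called lower and 3 higher, where 1632 of all tested genes were lower and 4030 higher.

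Promoters of these epithelial genes often held the E-box form of Snail and ZEB proteins. The genes were listed because EMT factors, which recognise E-boxes, repress them, so this share cannot be read as a result of these data. Windows of 1 gene can overlap, as those of MUC1 do, so the windows counted are not independent. CACCTG, which reads CAGGTG on the other strand and is contained in CANNTG, was in 17 of 28 RefSeq windows of 300 bases for 19 of the 32 listed genes (60.7%), in 20.6% of all 35116 windows and in 4 of 30 windows (13.3%) of mesenchymal markers. The other listed genes, CDH1 among them, had no window and were not examined. Of 15 epithelial genes with it in any window, 7 were called lower, 1 was called higher, 6 were not called and 1 was not tested. Of 4 genes without it, 2 were called lower and 2 were not called. These are few genes, and whether the motif bears on the calls was not tested. The windows below are shown to set genes that fell (OCLN, chr5:69492540-69492839, plus strand, and JUP, chr17:41785927-41786226, minus strand) beside 1 that was not called (CLDN7, chr17:7262429-7262728, minus strand) and 1 that rose (MUC1, chr1:155192860-155193159, minus strand), on GRCh38.p14 and from RefSeq, with every CANNTG in capitals. They were chosen after values had been seen.
OCLN: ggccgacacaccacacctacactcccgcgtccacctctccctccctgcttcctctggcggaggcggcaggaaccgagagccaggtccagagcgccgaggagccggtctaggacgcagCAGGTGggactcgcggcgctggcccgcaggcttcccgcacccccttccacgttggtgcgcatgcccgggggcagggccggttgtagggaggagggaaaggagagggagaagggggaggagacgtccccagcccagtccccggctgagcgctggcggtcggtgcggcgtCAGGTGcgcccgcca
JUP: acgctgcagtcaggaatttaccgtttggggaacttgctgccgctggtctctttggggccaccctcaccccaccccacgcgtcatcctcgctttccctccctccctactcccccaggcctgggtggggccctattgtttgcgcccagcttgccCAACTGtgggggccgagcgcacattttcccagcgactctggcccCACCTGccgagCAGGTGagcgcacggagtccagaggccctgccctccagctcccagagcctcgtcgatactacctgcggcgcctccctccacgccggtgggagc
CLDN7: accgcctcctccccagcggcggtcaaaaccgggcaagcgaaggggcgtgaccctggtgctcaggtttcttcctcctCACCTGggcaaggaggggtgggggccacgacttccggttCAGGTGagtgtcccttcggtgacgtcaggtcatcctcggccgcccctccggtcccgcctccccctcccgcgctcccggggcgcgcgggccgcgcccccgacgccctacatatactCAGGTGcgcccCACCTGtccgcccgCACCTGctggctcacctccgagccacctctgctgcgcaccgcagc
MUC1: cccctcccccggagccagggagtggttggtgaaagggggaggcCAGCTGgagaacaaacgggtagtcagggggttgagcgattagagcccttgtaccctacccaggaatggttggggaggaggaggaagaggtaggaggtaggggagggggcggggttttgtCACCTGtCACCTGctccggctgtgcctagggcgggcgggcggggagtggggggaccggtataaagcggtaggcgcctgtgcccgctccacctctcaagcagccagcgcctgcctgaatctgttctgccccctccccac

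The window shown for CLDN7 held 5 of the CACCTG or CAGGTG motifs and those shown for OCLN, JUP and MUC1 held 2 each. Each of these genes had another window, not shown. It held 0 of these motifs for CLDN7 and JUP, 1 for OCLN and 2 for MUC1, so the number depends on the start used. CLDN7, a claudin of tight junctions, was at 9.40, 9.89 and 8.86 CPM with siNC and at 13.9, 9.38 and 9.71 CPM with siE7 (log2 fold change 0.23, SE 0.186, adjusted p 0.36 in edgeR's quasi-likelihood test), and its log2 fold change was -0.035 without siE7 replicate 1. OCLN was at 8.71, 7.33 and 10.0 CPM with siNC and at 2.73, 3.84 and 4.32 CPM with siE7. A match of letters is a description of the window and does not show binding.

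Of 22 mesenchymal markers tested, 11 were called lower, 1 was called higher and 10 were not called (54.5% called, median -0.645), where 16% of all tested genes were called lower, and the other 8 of the list failed the filter on low counts. The receptor kinase AXL was at 412, 396 and 447 CPM with siNC and at 116, 86.2 and 82.2 CPM with siE7 (-2.14, SE 0.144). The ecto-enzyme NT5E (-2.17, SE 0.148) and the matrix protein SPARC (-1.46, SE 0.129) fell as well, as did L1CAM, MMP14, TNC, ITGA5, FBN1 and MMP2. FN1 and CDH2, given above as cell-state markers, belong to this list and are counted among those called lower. The collagen cross-linking enzyme LOX was the 1 called higher, at 4.62, 4.04 and 3.03 CPM with siNC and at 15.8, 15.3 and 13.4 CPM with siE7 (1.93, SE 0.193). Type I collagen (COL1A1) was not called, at 0.26 and at 0.058 without siE7 replicate 1. SNAI2, TWIST1 and ZEB2 thus rose in libraries in which these markers of both cell states fell. Without siE7 replicate 1, 13 of 23 tested mesenchymal markers were called lower and 2 higher, where 29.5% and 28.9% of all genes were.

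**Figure D5:**
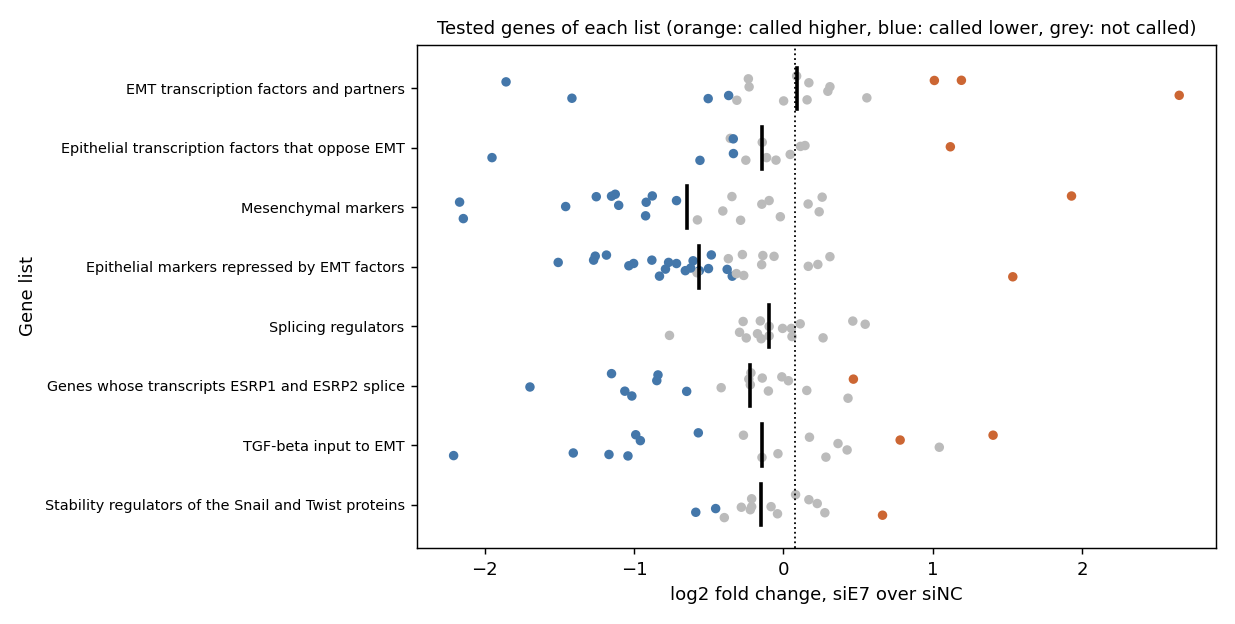
Log2 fold changes (siE7 over siNC) of the tested genes of 8 lists, orange where called higher, blue where called lower and grey where not called, with a black line at the median of each list and a dotted line at the median of all tested genes, 0.077. Most called epithelial and mesenchymal markers lie on the lower side, and no splicing regulator was called.

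None of 16 tested splicing regulators of epithelial and mesenchymal cells other than the ESRP genes was called, where 34% of all genes were. The smallest p-values belonged to RBM47, an epithelial RNA-binding protein (0.55, SE 0.208, adjusted p 0.061), CELF1 (0.27, SE 0.113, adjusted p 0.091) and HNRNPA1 (-0.25, SE 0.107, adjusted p 0.094 in edgeR's quasi-likelihood test). At an unadjusted p under 0.05 edgeR gave 4 of them and limma-voom 4, and after adjustment limma-voom called 0 and DESeq2 1. The edgeR count changed to 3 with libraries scaled by their totals alone. It also changed without siE7 replicate 1, when 2 were called higher and 3 lower, fewer than the share of 58.4% of all genes in that fit. Without it RBM47 (0.64), CELF1 (0.22) and HNRNPA1 (-0.25) were called.

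Of 18 genes whose transcripts the ESRP proteins splice, 7 were called lower and 1 higher (44.4%, median -0.226), where 34% of all tested genes were called and 16% were lower. The laminin receptor subunit ITGA6 fell from 332.9 to 103 CPM on average (-1.70, SE 0.137), the hyaluronan receptor CD44 fell by 1.15 (SE 0.108) and the dynamin DNM2 fell by 1.06 (SE 0.126) on the log2 scale. FGFR2, whose IIIb and IIIc forms are the classical ESRP target, was not called (-0.42, SE 0.29), but was called without siE7 replicate 1 (-0.79). Counts per gene give these levels and do not show splice forms. Leaving out siE7 replicate 1, 13 were called lower and 2 higher, where 58.4% of all genes were called.

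Genes of the TGF-beta input to EMT, which induces Snail and ZEB genes through SMAD proteins, were called in 9 of 17 cases, 2 higher and 7 lower (52.9%, median -0.143), where 34% of all tested genes were called. THBS1, an activator of latent TGF-beta, fell from 1436 to 311 CPM on average (-2.21, SE 0.119). The type II receptor TGFBR2 fell by 1.17 (SE 0.116), the SMAD repressor SKI by 1.04 (SE 0.128), the ligand TGFB2 by 0.96 and the signal transducer SMAD3 by 0.57 on the log2 scale. The inhibitory SMAD7 rose (0.78, SE 0.158), as did the latency protein LTBP1 (1.40, SE 0.403), which was low at 0.419 CPM with siNC and was called in 8 of 13 alternatives. The ubiquitin ligase SMURF2 (-0.99, SE 0.174) and the coreceptor ENG (-1.41, SE 0.267) were also called lower. The type I receptor TGFBR1 (0.37), SMAD2 (0.175) and SMAD4 (0.43) were not called. Without siE7 replicate 1 all of these last genes were called higher, at 0.52, 0.20 and 0.57. The list thus moved in both directions, and whether the TGF-beta input changed was not tested. Leaving out siE7 replicate 1, 7 genes of the list were called higher and 10 lower, in a fit that called 58.4% of all genes.

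Snail and Twist proteins are short-lived, and 14 genes that set their stability or translation were tested. Of these 1 was called higher and 2 lower (21.4%, beside 34% of all tested genes, median -0.147). YBX1, a cold shock protein that promotes translation of Snail and Twist RNAs, fell by 0.59 (SE 0.122), the casein kinase CSNK1E fell by 0.45 (SE 0.107), and the deubiquitinase USP27X rose by 0.66 (SE 0.173) on the log2 scale. Protein levels were not measured in these libraries. Without siE7 replicate 1, 3 were called higher and 6 lower, where 58.4% of all genes were called.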

How the data were processed

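The authors cultured and transfected SCC-9 cells, made directional poly(A) libraries and sequenced paired-end reads on an Illumina NovaSeq. Their processing notes name HISAT2, DESeq2 and GRCh38; the counting tool, the annotation release and the use of strand are not given in the sources used here. The deposited values were raw counts of reads per gene, without normalization, for 3 siNC and 3 siE7 libraries, of 25608192 to 29550264 counts each, grouped by their titles. No values of other samples were in the table. Symbols were taken as deposited, and positions and exon lengths came from GENCODE v44 for 25267 of 25349 gene identifiers matched without version.

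Counts were filtered with filterByExpr, scaled by TMM factors and tested by edgeR 4.0.16 (quasi-likelihood F-test with robust dispersions, R 4.3.3) over 14661 genes, with Benjamini-Hochberg adjustment. Genes with an adjusted p under 0.05 were called, and DEGs also had a log2 fold change beyond 1. Alternatives were DESeq2 1.42.0, limma-voom 3.58.1, other scalings and filters, a replicate block and leaving out each library. The tests were checked on simulated counts. Profiles were compared as log2 of CPM plus 0.5. Single ratios were tested by exact two-sided permutation, and Wilson intervals cover counting error only. The text names all 10 genes, MKI67, CDH1, CDH2, FN1 and EPCAM, the 3 tested genes of each list with the smallest p and the nearest profiles; further genes were named after their values were seen. The members and lists were chosen with earlier results of these data known, and no list was tested as a set. Values of some list members are not reported here.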

Additional observations from a re-analysis of the deposited data

How the results depend on the processing

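Of 84 alternative values of the 6 tested EMT genes, 71 kept both direction and call, 12 kept the direction and lost the call, and 1 reversed: ESRP1 turned to 0.137 with libraries scaled by their totals alone. That scaling moved the median of all genes by 0.168, raised the share of DEGs that were higher from 60.4% to 76.2%, raised ZEB2 to a log2 fold change of 1.01, so that 3 of the genes were DEGs, and called 22 genes of the 8 pathway lists higher and 44 lower, against 10 and 54. Leaving out each library in turn gave 3 to 5 called EMT genes, with 3 called without siNC replicate 2, without siNC replicate 3 and without siE7 replicate 3. It gave 9 to 23 genes of the pathway lists called higher and 42 to 80 called lower, against 10 and 54, with 23 and 80 without siE7 replicate 1, and 1573 to 2219 DEGs in all. With no condition on the fold change the comparison had 4990 called genes against 1792 DEGs. Of 1035 alternative values of 74 of the other genes named and tested, 966 kept direction and call, 44 lost and 14 gained the call, and 11 reversed, all of genes that were not called: GRHL2 (0.057, totals alone), CLDN7 (-0.035 to 0.333 with libraries left out) and TCF3 (-0.046 to 0.126), each below 0 without siE7 replicate 1, and TCF12 under DESeq2 (-0.059), limma-voom (-0.019), DESeq2 size factors in edgeR (-0.05), no filter (-0.013), the replicate block (-0.015) and with libraries left out (-0.156 to 0.072). The cause of these moves was not tested.

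The labels do not say whether replicate numbers pair the libraries. Deviations of libraries with the same number correlated at -0.039, -0.021 and -0.052. As siE7 replicate 1 stood far apart within its group, these values cannot settle whether the libraries were paired. With the number as a replicate block there were 1819 DEGs and 4 called EMT genes, since VIM (log2 fold change -0.33, adjusted p 0.079) lost its call. Depth limits SNAI1, TWIST2 and ZEB1, which had 2 to 13 counts per library.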
